A study of Mus musculus with 25 samples.

Results

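The replication-dependent histone genes of the mouse were described here in livers and hepatoblastomas (HBs) of mice on a standard diet or on a diet with dodecanedioic acid (DDDA). A gene was included if its symbol began with Hist1h, Hist2h, Hist3h or Hist4h, which are the older symbols of the histone gene clusters. This rule found 67 of 36333 genes in the table and used no measured value. By class they were 6 linker H1, 18 H2A, 18 H2B, 12 H3 and 13 H4 genes. By cluster, 54 belonged to Hist1 on chromosome 13, 10 to Hist2 on chromosome 3, 2 to Hist3 on chromosome 11 and 1 to Hist4 on chromosome 6.

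RNA-Seq had been performed on FVB mice, with 5 libraries in each of 4 groups. The standard diet livers (3 females, 2 males) and the DDDA livers (2 females, 3 males) came from mice without an injection, and the DDDA mice had eaten 10% DDDA for 3 to 4 weeks. The HBs of the standard diet (2 females, 3 males) and of the DDDA diet (4 females, 1 male) had been raised by injecting Sleeping Beauty vectors that encode 2 oncogenic mutants, YAP S127A of the Hippo pathway and Δ(90), which lacks part of β-catenin. These vectors were delivered through the tail vein, which mainly reaches hepatocytes, so the HBs model a tumor with both proteins imposed and not one that arose by itself. According to the methods, tumor RNA came from regions that looked healthy. The labels give no ages. The series has 25 samples, and 5 HBs of long-term DDDA are not analysed here.

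Replication-dependent histone genes supply the core and linker histones that package newly copied DNA, and most of their mRNA is made in S phase. Unlike other mRNAs, their transcripts usually end just after a short stem-loop in place of a poly(A) tail. The stem-loop is bound by Slbp, and the end is cut by the U7 snRNP, of which Lsm10 and Lsm11 are parts. Some of these genes also make a longer transcript with a poly(A) tail, a form known from cells that have stopped dividing. The labels of all samples describe selection of mRNA with oligo(dT) beads, and the same text also names removal of rRNA for other kinds of library. How much of each transcript without a tail entered each library was not tested.

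The 3′ stem-loop is shown for the members on which the results turn, since it marks the transcript end made without a tail. It was found in 46 of the 67 members in GENCODE M21 transcripts (GRCm38), and 26 of them shared 1 form of its 16 bases. Many of the others have short annotated transcripts, such as 312 bases for Hist1h4k and 381 bases for Hist1h2bl. Such a transcript may stop before the stem-loop, so these members may still have one. Capitals mark the stem-loop, with up to 5 bases on each side, 5′ to 3′.
Hist1h2ao: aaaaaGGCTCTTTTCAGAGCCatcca
Hist2h2aa1: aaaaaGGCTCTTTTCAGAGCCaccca
Hist3h2a: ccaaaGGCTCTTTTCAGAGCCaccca
Hist1h1c: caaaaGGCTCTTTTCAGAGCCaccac
Hist2h3c1: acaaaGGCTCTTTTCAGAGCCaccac
Hist1h4i: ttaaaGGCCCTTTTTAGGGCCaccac
Hist1h4h: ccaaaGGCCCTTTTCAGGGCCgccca

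The annotated transcripts differed most in what followed the stem-loop. The Hist1h2ao transcript of 480 bases ended 31 bases after it, that of Hist2h2aa1 ended 35 bases after it and that of Hist1h4h ended 46 bases after it. None of these held the poly(A) signal AATAAA in its last 60 bases. The transcript of Hist1h1c went on for 840 bases, that of Hist2h3c1 for 1162 bases and that of Hist3h2a for 1643 bases after the stem-loop, and each of these held AATAAA in its last 60 bases. No stem-loop was found in the annotated transcripts of Hist1h2bc (1156 bases), Hist2h2be (2620 bases), Hist1h2bq (2015 bases) or Hist1h2br (2197 bases). The last 3 of these held AATAAA near their end.

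Promoters are shown for 4 members that differed between groups, to set the tumor-high genes beside the liver-high one. Each run covers 250 bases before and 50 bases after the RefSeq start (GRCm38.p6), and is written along the gene's strand. Capitals mark CCAAT, the site of NF-Y, the box TATAAA, and the octamer ATTTGCAT bound by Oct1 in H2B promoters, each searched on both strands, so that ATTGG also counts for the first of these. No 2 of the capital stretches overlap.
Hist1h2ao, chr13:21810117-21810416: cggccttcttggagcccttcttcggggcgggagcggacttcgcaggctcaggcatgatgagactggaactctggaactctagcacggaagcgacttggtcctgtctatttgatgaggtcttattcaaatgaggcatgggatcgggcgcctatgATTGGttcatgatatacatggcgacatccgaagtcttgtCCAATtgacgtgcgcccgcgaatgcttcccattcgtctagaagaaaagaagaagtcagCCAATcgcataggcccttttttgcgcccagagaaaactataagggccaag
Hist1h1c, chr13:23738557-23738856: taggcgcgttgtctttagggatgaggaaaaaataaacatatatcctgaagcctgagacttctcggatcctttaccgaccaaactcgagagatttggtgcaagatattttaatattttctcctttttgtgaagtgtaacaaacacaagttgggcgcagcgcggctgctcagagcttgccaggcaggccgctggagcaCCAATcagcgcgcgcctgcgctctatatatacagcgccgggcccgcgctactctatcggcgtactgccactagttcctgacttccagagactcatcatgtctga
Hist3h2a, chr11:58954435-58954734: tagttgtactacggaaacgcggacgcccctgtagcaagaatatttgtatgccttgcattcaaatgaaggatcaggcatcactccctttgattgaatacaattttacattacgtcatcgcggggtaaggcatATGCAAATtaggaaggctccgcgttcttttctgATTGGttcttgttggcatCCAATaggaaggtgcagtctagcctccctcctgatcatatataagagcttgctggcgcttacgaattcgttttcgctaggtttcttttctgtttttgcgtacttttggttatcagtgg
Hist2h2aa1, chr3:96245247-96245546: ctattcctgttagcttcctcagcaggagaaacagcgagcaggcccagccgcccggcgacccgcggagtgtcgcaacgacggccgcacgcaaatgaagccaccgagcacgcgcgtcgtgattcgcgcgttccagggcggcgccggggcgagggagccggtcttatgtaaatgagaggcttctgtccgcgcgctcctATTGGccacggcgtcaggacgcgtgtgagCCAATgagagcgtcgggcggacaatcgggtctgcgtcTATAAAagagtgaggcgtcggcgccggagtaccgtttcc

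Of 62 members with a RefSeq promoter, 53 (85.5%) held CCAAT, against 37.4% of 32851 promoters of the same length. TATAAA was in 35 (56.5%), against 13.6% of all promoters, and the octamer in 14 (22.6%), against 1.74%. A match describes these letters and is not a site that was shown to be bound. The windows of Hist1h2ao and its neighbour Hist1h2ap shared a run of 200 identical bases, and the near-identical copies were alike over their transcripts too. Reads were assigned to genes by the authors, so values of such copies are uncertain for each gene alone. Of all words of 50 bases in the Hist1h2ao transcript, 93.5% also occurred in Hist1h2ap. For Hist2h2aa1 in Hist2h2aa2 this was 89.2%, and for Hist1h2bq in Hist1h2br 97.3%.

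Whole-number counts summed to 16548771 to 18348116 per standard diet liver, 16818785 to 19308728 per standard diet HB, 18817404 to 23373175 per DDDA liver and 18323912 to 29783324 per DDDA HB. Column names place the standard diet on 1 flow cell and DDDA on 2 others, the second of them with only DL03 and DT3168. Only the standard diet columns are marked as paired and trimmed. Diet, sequencing run and this marking therefore cannot be told apart. No lane held both livers and HBs. The tissue labels matched their markers, with 5 of 8 hepatocyte genes lower and 6 of 7 tested HB genes higher in standard diet HBs than in livers. On DDDA 6 of 8 hepatocyte genes were lower, and of 7 tested HB genes 5 were higher and 1 was lower. The members were rare, with 0.00876% to 0.0392% of all counts in a library. Over the 20 libraries 34 members never reached 10 counts, and Hist1h2ba and Hist1h2aa, which are testis forms, had none. In contrast, 4 genes took 82.3% of the 76368 member counts.

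**Figure D1:**
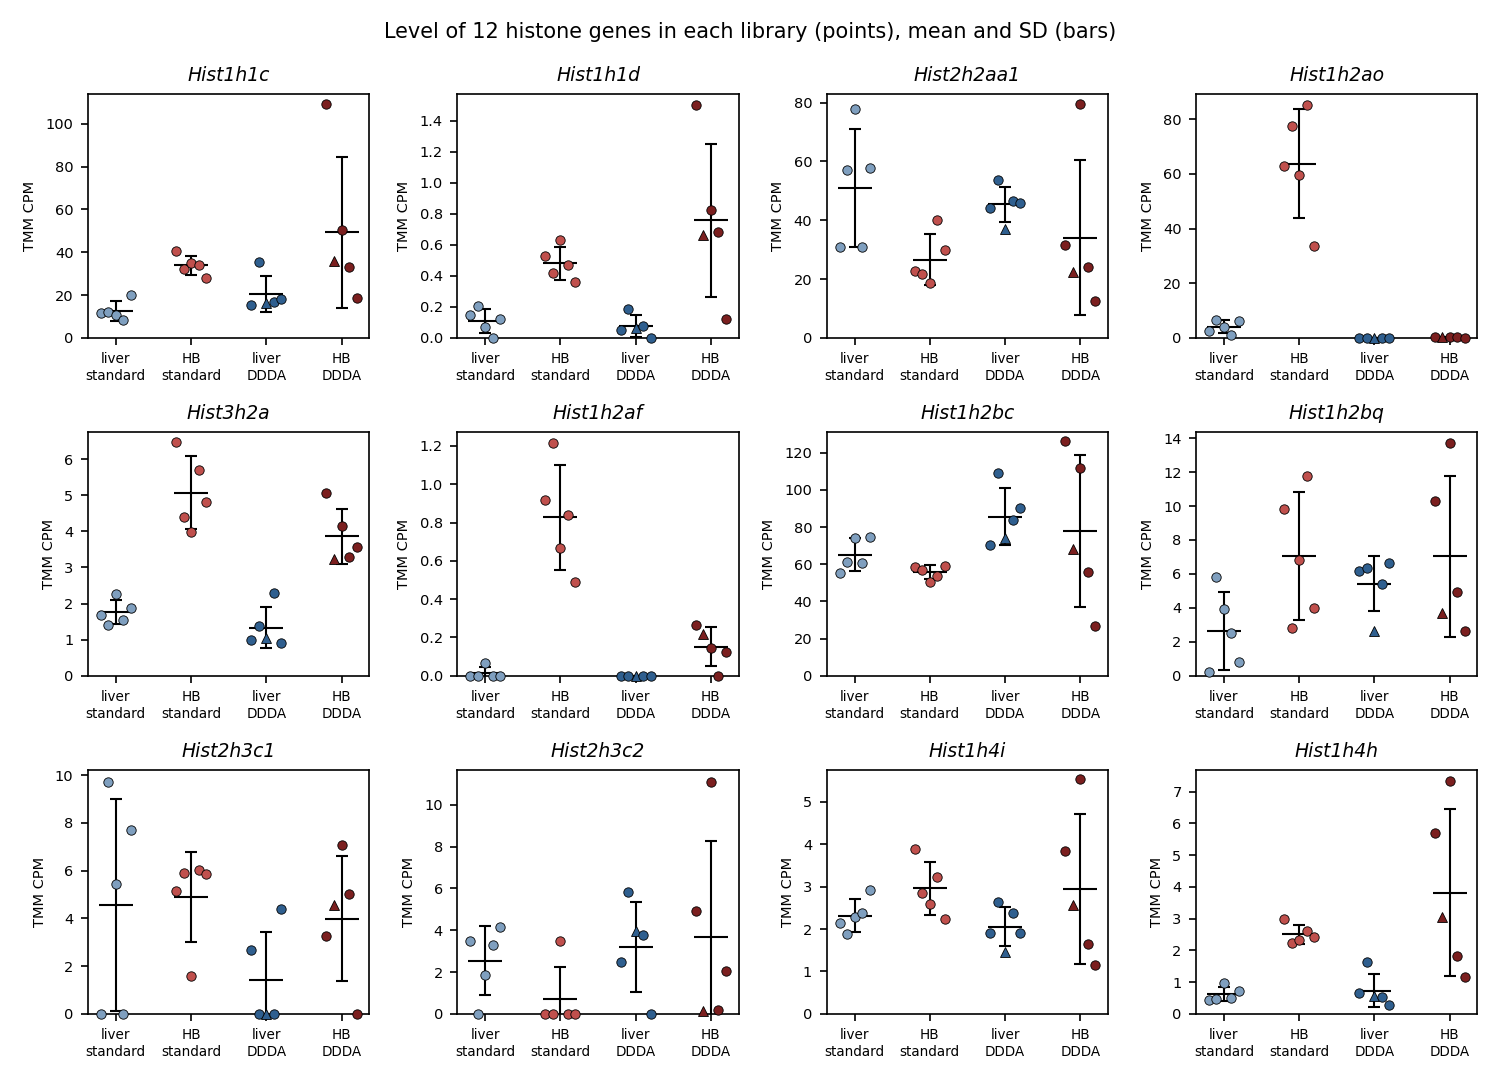
TMM-normalized CPM of 12 histone genes in each library, with 1 panel per gene, groups on the horizontal axis, bars for the mean and SD (n = 5, cut at 0) and triangles for DL03 and DT3168. Hist1h1c, Hist3h2a and Hist1h4h lay higher in HBs, Hist1h2ao was seen almost only on the standard diet, and Hist2h3c1 and Hist2h3c2 were each at 0 in some libraries of most groups.

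Levels between genes were compared in the deposited TPM, which account for length. The order of mean TPM over the 20 libraries was Hist1h2bc (196), Hist2h2aa1 (143), Hist1h1c (97.8), Hist1h2ao (86.4), Hist3h2a (14.7), Hist1h4i (14.5), Hist2h3c1 (13), Hist1h4h (11.2), Hist2h3c2 (8.03), Hist1h2bq (5.92), Hist1h2br (3.69), Hist2h2be (2.95) and Hist1h4k (2.38). These means pool groups that differ, and the place of Hist1h2ao held only in standard diet livers, where it was at 12.4 ± 8.02 TPM. It was at 332 ± 105 TPM in standard diet HBs, above Hist1h2bc at 207 ± 23.5. On DDDA it was at 1.17 ± 0.842 TPM in HBs and at 0 in livers. Every pair of neighbours in the pooled order overlapped in its range over the 20 libraries. The other 54 members lay between 0 and 1.74 TPM. The 13 members of at least 2 TPM held 96.7% of the member counts, and 8 of them had an annotated transcript of 1000 bases or longer, against 10 of the other 54. AATAAA near the end was found in 6 of these 13 and in 9 of the 54, and the stem-loop in 8 and in 38. These counts describe the annotation, in which short transcripts may stop before the stem-loop.

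The 12 genes in the plot of single genes were the 2 of highest mean TPM in each class, up to 5 called in each direction per comparison, and Hist1h2ao. Levels within a gene are given below in CPM after TMM scaling over all 20 libraries. Differences come from edgeR's quasi-likelihood F-test on counts and were called at an adjusted p (Benjamini-Hochberg over all genes tested) under 0.05. The labels give each library an identifier of its own and both sexes in each group, so each group holds more than 1 animal. They do not say that all 5 libraries of a group came from separate animals. The p-values thus measure the spread between these samples, part of which may be technical.

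In HBs of the standard diet, 6 histone genes were higher and 1 was lower than in livers, of 13 that passed the filter on low counts. Over all 13830 genes tested, 28.2% were called higher and 26.8% lower. The 6 were Hist1h2ao, Hist1h2af, Hist1h4h, Hist3h2a, Hist1h1c and Hist2h2be, and Hist2h2aa1 was lower. They covered linker, H2A, H2B and H4 genes, and of the 12 H3 genes only 2 were tested. A gene at nearly 0 in livers passed the filter only through HBs, so the share of calls among the 13 is not a finding about the family. In bulk tissue, fewer cells of a type and less RNA per cell cannot be told apart, here and in the comparisons that follow.

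Hist1h2ao codes for a core histone H2A and lies at chr13:21810367-21810918. Its CPM in standard diet HBs was 63.0 in s1758, 77.4 in s1799, 59.7 in s1800, 85.2 in s2138 and 33.5 in s2139. In standard diet livers it was 2.36 in c1, 6.41 in c12, 4.06 in c17, 1.15 in c4 and 6.32 in c7. All HBs lay above all livers, with a mean of 63.8 ± 19.9 (SD, n = 5) against 4.06 ± 2.35. The log2 fold change was 3.94 ± 0.41 (SE), with an adjusted p of 1.48e-05 in edgeR.

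Hist1h2af is another H2A gene of the same cluster, at chr13:23533911-23534378. It had 21, 32, 17, 18 and 11 counts in HBs s1758, s1799, s1800, s2138 and s2139, and 1 count in liver c17 with none in the other 4 livers. The groups did not overlap, and the adjusted p in edgeR was 4.24e-05. With 1 count in all livers together, no fold change is given. Of its words of 50 bases, 59.1% also occurred in Hist1h2ao and 79.7% in Hist1h2ad, so some of its reads may be reads of such copies, which was not tested.

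Hist1h4h codes for histone H4 and lies at chr13:23531044-23531478. It was measured at 2.98, 2.24, 2.32, 2.61 and 2.41 CPM in HBs s1758, s1799, s1800, s2138 and s2139. In livers c1, c12, c17, c4 and c7 it was measured at 0.44, 0.47, 0.96, 0.49 and 0.73 CPM. Every HB exceeded every liver, and the log2 fold change was 1.98 ± 0.27 (adjusted p = 9.12e-05, edgeR).

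Hist3h2a, an H2A gene of the small Hist3 cluster at chr11:58954685-58955192, overlaps Trim17 in the table. In HBs it was measured at 6.48, 4.40, 3.97, 5.69 and 4.82 CPM (s1758, s1799, s1800, s2138, s2139). In livers it was measured at 1.69, 1.42, 2.27, 1.56 and 1.88 CPM (c1, c12, c17, c4, c7). The groups were apart, and the log2 fold change was 1.5 ± 0.22 (adjusted p = 0.000154, edgeR).

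Hist1h1c codes for the linker histone H1.2, which binds DNA between nucleosomes, and lies at chr13:23738807-23739531. Its HB values were 40.4, 32.0, 35.0, 34.0 and 28.0 CPM (s1758, s1799, s1800, s2138, s2139). Its liver values were 11.5, 12.1, 10.5, 8.11 and 20.2 CPM (c1, c12, c17, c4, c7), and c7 was the highest liver but still below all HBs. Hist1h1c thus rose by 1.42 ± 0.21 on the log2 scale (adjusted p = 0.000181, edgeR).

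Hist2h2be, an H2B gene, was the weakest of the rises at a log2 fold change of 0.88 ± 0.30 (adjusted p = 0.0255, edgeR). Its CPM was 4.62 ± 1.24 in HBs and 2.47 ± 1.10 in livers, and liver c12 at 4.39 CPM lay within the HB range. The call was lost without any 1 of c1, c17, c4, c7, s1758 and s1800.

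Hist2h2aa1, an H2A gene at chr3:96245497-96246052, ran the other way. It was measured at 31.0, 57.1, 77.7, 31.0 and 57.8 CPM in livers c1, c12, c17, c4 and c7. HBs s1758, s1799, s1800, s2138 and s2139 had 22.7, 21.8, 18.5, 40.0 and 30.0 CPM. HB s2138 lay above livers c1 and c4, so the groups overlapped. Livers c1 and c4 were the males, and the females c12, c17 and c7 held the higher values. HBs of males (s1758, s2138, s2139) at 22.7, 40.0 and 30.0 CPM lay around the 31.0 CPM of both male livers. The log2 fold change was -0.95 ± 0.29 (adjusted p = 0.0155, edgeR), and it was -0.96 ± 0.28 after Hist2h2aa1 and Hist2h2aa2 were summed. The call was kept with sex as a covariate. In the deposited TPM, which carry no TMM factor, the means were closer, with 133 ± 27.6 in HBs and 150 ± 69.0 in livers.

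Hist1h2bc, the H2B gene of highest level, did not pass the test. It was measured at 55.8 ± 3.64 CPM in HBs and 65.2 ± 8.81 CPM in livers (log2 fold change -0.24 ± 0.11, adjusted p = 0.0763, edgeR). In the deposited TPM the order was turned, with 207 ± 23.5 in HBs and 135 ± 30.8 in livers. Hist1h4i, an H4 gene, was at 2.96 ± 0.64 CPM in HBs and 2.32 ± 0.38 CPM in livers (adjusted p = 0.225).

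On DDDA, 3 histone genes were higher in HBs than in livers and 0 were lower, of 11 that passed the filter. Over all 13415 genes tested, 26.3% were called higher and 23.4% lower. The 3 were Hist1h4h, Hist3h2a and Hist1h1c, all of which were also called on the standard diet.

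The HBs of this diet were spread more widely than those of the standard diet. Summed over all 67 members, DT2264 had 74.3 CPM, the lowest of all 20 libraries, and DT2277, DT3168, DT2270 and DT3167 had 142, 163, 309 and 327 CPM. Standard diet HBs ranged from 185 to 259 CPM. The tests of the called genes in DDDA HBs are therefore also given without DT2264.

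Hist3h2a was measured at 5.07, 3.23, 4.13, 3.30 and 3.57 CPM in DDDA HBs DT3167, DT3168, DT2270, DT2277 and DT2264. In DDDA livers it was measured at 1.0, 1.38, 1.04, 2.30 and 0.92 CPM (DL01 to DL05). All HBs lay above all livers, as on the standard diet. The fit gave Hist3h2a a difference of 1.53 ± 0.31 on the log2 scale (adjusted p = 0.00249, edgeR) and 1.56 ± 0.33 without DT2264.

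Hist1h4h was measured at 5.69, 3.06, 7.34, 1.81 and 1.15 CPM in DT3167, DT3168, DT2270, DT2277 and DT2264. The livers DL01 to DL05 had 0.65, 1.63, 0.55, 0.52 and 0.28 CPM. DL02 lay above DT2264, so the groups overlapped by that pair. On the log2 scale the fold change was 2.37 ± 0.61 (adjusted p = 0.0088, edgeR), and 2.60 ± 0.55 without DT2264.

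Hist1h1c was measured at 109, 36.0, 50.5, 33.0 and 18.4 CPM in DT3167, DT3168, DT2270, DT2277 and DT2264. The livers DL01 to DL05 had 15.5, 35.3, 16.4, 16.7 and 17.9 CPM, with DL02 at the level of the HBs. Between the groups the log2 fold change was 1.27 ± 0.45 (adjusted p = 0.0361, edgeR). The call was lost without any 1 of DL01, DL03, DL04, DL05, DT3167 and DT2270, without DL03 and DT3168 together, and with sex as a covariate. Without DT2264 it was kept, at 1.49 ± 0.39 (adjusted p = 0.0106). Without DT3167, the highest HB, the log2 fold change was 0.74 ± 0.33 (adjusted p = 0.0901).

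Hist2h2be and Hist1h1d were called as well without DT2264, which made 5 called members in place of 3, while the number tested rose from 11 to 14. Hist1h1d did not pass the filter with all libraries. It had 1, 3, 1, 1 and 0 counts in DL01 to DL05, so it could pass only through HBs. It was also called when any 1 of DL01 to DL05 was left out, which rests on the same HBs. Without DT2264, Hist2h2be had a log2 fold change of 1.17 ± 0.32. Hist1h1d, a linker H1 gene, had one of 3.50 ± 0.61, which rests on these few liver counts. Hist2h2aa1 was at 34.0 ± 26.3 CPM in HBs and 45.5 ± 5.97 CPM in livers (adjusted p = 0.396), and DT2270 at 79.5 CPM was above all livers while the other 4 HBs at 12.7 to 31.6 CPM were below all of them. In the deposited TPM its mean was higher in HBs of this diet (163 ± 118) than in livers (127 ± 22.5). Without DT2270 it was called lower, at a log2 fold change of -1.01 ± 0.24 (adjusted p = 0.0074, edgeR).

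**Figure D2:**
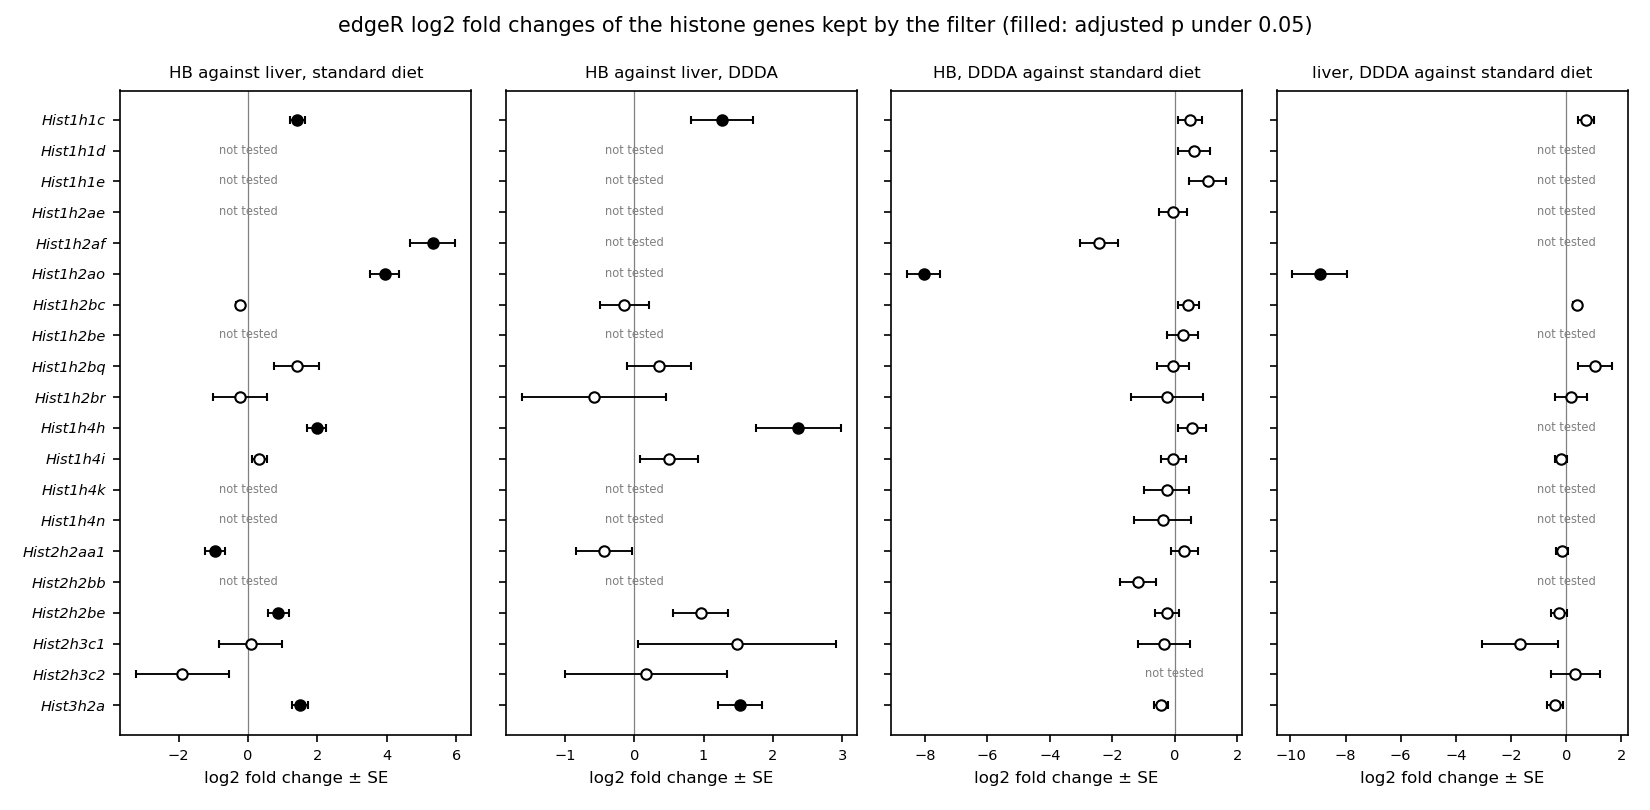
Log2 fold change with its SE from edgeR for each histone gene that passed the filter, 1 panel per comparison (n = 5 libraries per group), filled where the adjusted p was under 0.05. The horizontal scales differ between panels. Filled points on the right mark 6 genes on the standard diet and 3 on DDDA, and Hist1h2ao is the filled point on the left in both comparisons of diets.

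Many members were too low to pass the filter in any comparison of groups, namely 47 of 67. Summed, these 47 gave 2.14 ± 0.42 CPM in standard diet livers, 4.34 ± 0.79 CPM in standard diet HBs, 2.32 ± 0.86 CPM in DDDA livers and 5.10 ± 2.43 CPM in DDDA HBs. All standard diet HBs (3.63 to 5.69 CPM) lay above the livers (1.40 to 2.48 CPM), whereas DDDA HBs (2.22 to 8.03 CPM) overlapped with theirs (1.06 to 3.05 CPM). Gene by gene, 38 of the 47 had more counts in standard diet HBs than in livers and 2 had fewer. On DDDA, 37 had more and 4 had fewer. Neither sums nor counts were tested. The counts were not scaled for depth, and the share over all genes of such low counts was not computed. With every gene of at least 1 count kept, all genes leaned towards HBs. Their median log2 fold change was 0.18 on the standard diet and 0.32 on DDDA. The 47 also include near-identical copies, so these numbers are not a finding about the family. Hist1h1b, the linker histone H1.5, had 25 counts over the 5 standard diet HBs and 1 over the livers, and 23 and 2 on DDDA. Hist1h3d, an H3 gene, had 38 and 2 on the standard diet, and 54 and 21 on DDDA. With every gene of at least 1 count kept, 18 of 60 members tested were called on the standard diet (17 of them higher), against 19.2% higher and 16.2% lower of all genes. On DDDA 11 of 63 were called (all higher), against 17.1% and 13.4%.

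**Figure D3:**
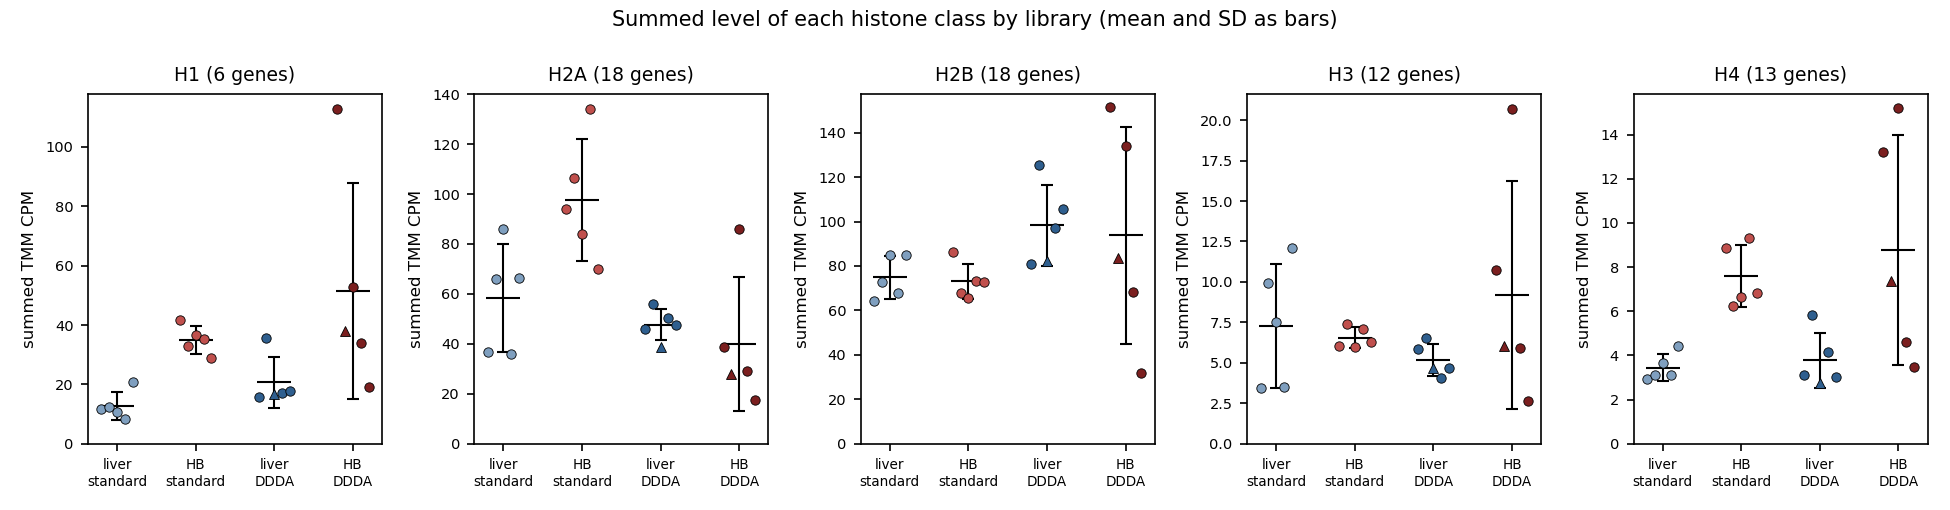
Summed TMM-normalized CPM of all genes of each histone class in each library, with bars for the mean and SD (n = 5) and triangles for DL03 and DT3168. The H1 and H4 classes lay higher in standard diet HBs than in livers, the H2B class overlapped, and the mean of the H2A class was higher in HBs on the standard diet but not on DDDA; in deposited TPM all class means were higher in HBs.

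Summed by class, linker H1 genes reached 35.1 ± 4.67 CPM in standard diet HBs and 12.7 ± 4.76 CPM in livers, and 51.4 ± 36.4 and 20.7 ± 8.45 CPM on DDDA. H4 genes reached 7.59 ± 1.41 CPM in HBs and 3.45 ± 0.61 CPM in livers, and 8.79 ± 5.21 and 3.77 ± 1.26 CPM on DDDA. H2B genes were at 73.2 ± 7.89 CPM in HBs and 74.9 ± 9.62 CPM in livers, and at 93.8 ± 48.9 and 98.3 ± 18.3 CPM on DDDA. H3 genes were at 6.56 ± 0.64 and 7.30 ± 3.84 CPM, and at 9.22 ± 7.05 and 5.16 ± 1.0 CPM. H2A genes were at 97.8 ± 24.4 CPM in HBs and 58.3 ± 21.6 CPM in livers, but at 39.9 ± 26.9 and 47.7 ± 6.25 CPM on DDDA. Most of the H1 sum was Hist1h1c, most of the H2B sum Hist1h2bc, and most of the H2A sum Hist2h2aa1 with Hist1h2ao. Directions of these sums depended on the scale. The ratio of TPM to CPM shifts between libraries by a factor that all genes share. In the deposited TPM, all 5 class means were higher in HBs than in livers on both diets, for H2B at 235 ± 26.2 against 143 ± 32.5 on the standard diet and for H2A at 195 ± 120 against 133 ± 22.6 on DDDA. These sums are descriptions with no test.

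The copies of some pairs split their counts differently between libraries of the same group. Hist2h3c1 and Hist2h3c2 code for H3 and lie at chr3:96246685-96247348 and chr3:96238479-96239127. In standard diet HBs, Hist2h3c1 had 118, 156, 40, 129 and 131 counts (s1758, s1799, s1800, s2138, s2139), and Hist2h3c2 had 88 counts in s1800 and 0 in the other 4. In livers c1 and c4 Hist2h3c1 was at 0 counts, with 47 and 40 counts of Hist2h3c2, whereas in c12 the former had 144 counts and the latter 0. Summed, the pair was at 5.59 ± 0.46 CPM in standard diet HBs, so it was far steadier there than its parts. It was at 7.12 ± 3.78 CPM in standard diet livers, 4.61 ± 0.85 CPM in DDDA livers and 7.65 ± 6.25 CPM in DDDA HBs. Among comparisons of the sum, none had an exact permutation p under 0.270 (two-sided, n = 5 per group, on log2 of CPM plus 0.5).

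Hist1h2bq and Hist1h2br, H2B genes on opposite strands, had promoter windows that were identical over all 300 bases. In liver c1 Hist1h2bq had 3 counts and Hist1h2br 85, and in liver c12 they had 86 and 9. In HB s1800 they had 173 and 5, but in HB s1758 each had 224. Their sum was at 6.73 ± 1.01 CPM in standard diet livers, 10.6 ± 6.05 CPM in standard diet HBs, 10.0 ± 3.47 CPM in DDDA livers and 10.1 ± 7.02 CPM in DDDA HBs. For this pair no exact permutation p was under 0.119 (two-sided, n = 5 per group). A single-gene value of either pair thus says little without its partner.

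Between the diets, Hist1h2ao was the single histone gene called, and it was lower on DDDA in both tissues. In HBs, 0 members were called higher and 1 lower of 19 tested, against 0.0994% higher and 0.199% lower of all 14082 genes. Those are 14 and 28 genes, and they became 60 and 63 without DT2264 and 0 and 1 without s2139, and leaving out any 1 of the 10 libraries moved their number by over 1.5 times. At an unadjusted p under 0.05 there were 2 members, against 16.3% of all genes, and DESeq2 called 2, both lower, against 2.53% lower of all genes. In livers, 0 were called higher and 1 lower of 11 tested, against 4.27% higher and 3.07% lower of all 12803 genes. Over all genes these were 547 and 393 calls, which dropped by over 1.5 times in number without any 1 of c12, c17, c7, DL01, DL03, DL04 and DL05, to 170 and 158 without DL03. There, 3 members had an unadjusted p under 0.05, against 24.8% of all genes, and DESeq2 called 1, which was lower, against 5.83% lower of all genes.

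Hist1h2ao had 1440, 2042, 1518, 1827 and 750 counts in standard diet HBs s1758, s1799, s1800, s2138 and s2139. In DDDA HBs it had 9, 14, 5, 4 and 0 counts (DT3167, DT3168, DT2270, DT2277, DT2264). Pooled over each group, its share of all counts was 280 times smaller in DDDA HBs, and the groups were far apart. The fitted log2 fold change was -8.05 ± 0.53 (adjusted p = 0.000199, edgeR), and -7.74 ± 0.39 without DT2264 (adjusted p = 2.77e-05).

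In standard diet livers Hist1h2ao had 32, 95, 59, 14 and 104 counts (c1, c12, c17, c4, c7), and in all 5 DDDA livers it had 0. Against a floor of 3 counts over the 5 DDDA livers, it was at least 121-fold lower on DDDA. The fitted log2 fold change of -8.94 depends on the prior count and is no bound (adjusted p = 0.00665, edgeR). The exact permutation p was 0.00794 in both tissues (two-sided, 5 against 5), the smallest such a design can give, and 0.0476 after adjustment over 60 tests. It was called in every alternative fit of both comparisons in which it was kept as a gene of its own.

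Near-identical copies were also summed, and the sum was lower on DDDA too. The sum of Hist1h2ao with 8 H2A genes linked by sharing at least 50% of their words with one another (Hist1h2ab, Hist1h2ad, Hist1h2af, Hist1h2ag, Hist1h2ah, Hist1h2ai, Hist1h2an and Hist1h2ap) had 7757 counts in standard diet HBs and 147 in DDDA HBs. The log2 fold change of the sum was -5.91 ± 0.35 in HBs (adjusted p = 8.11e-05, edgeR) and -3.94 ± 0.55 in livers (adjusted p = 0.0058, edgeR). Without Hist1h2ao the other 8 summed to 1.51 ± 0.61 CPM in standard diet HBs and 0.87 ± 0.28 CPM in DDDA HBs, and to 0.36 ± 0.31 and 0.28 ± 0.18 CPM in livers. Hist1h2ap, its nearest copy, had 26 counts over the standard diet HBs (6 in s1799, 20 in s2138) and 1 over the DDDA HBs. Other copies had more counts in DDDA HBs, with 20 and 45 for Hist1h2ah, 13 and 21 for Hist1h2ad, and 3 and 12 for Hist1h2ab. Hist1h2ai had 15 and 14, Hist1h2an 3 and 2, and Hist1h2ag 1 and 0. Hist1h2af, which also fell, is described below. Of the words of Hist1h2ao, 55.5% also occurred in genes outside the 67, which were not summed, and whether reads of Hist1h2ao were assigned to them was not tested.

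With the copies summed, HBs were higher than livers on both diets. On DDDA the 9 genes had 147 counts in HBs and 22 in livers, with a log2 fold change of 1.96 ± 0.51 (adjusted p = 0.009, edgeR). With so few liver counts, the sum could pass the filter there only through HBs. It was also chosen after the data were seen, so this call is a description. On the standard diet it was 3.85 ± 0.40 (adjusted p = 1.34e-05, edgeR). The difference of the diet's effect between HBs and livers was -1.90 ± 0.69 for the sum (adjusted p = 0.748, edgeR) and did not pass the test.

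**Figure D4:**
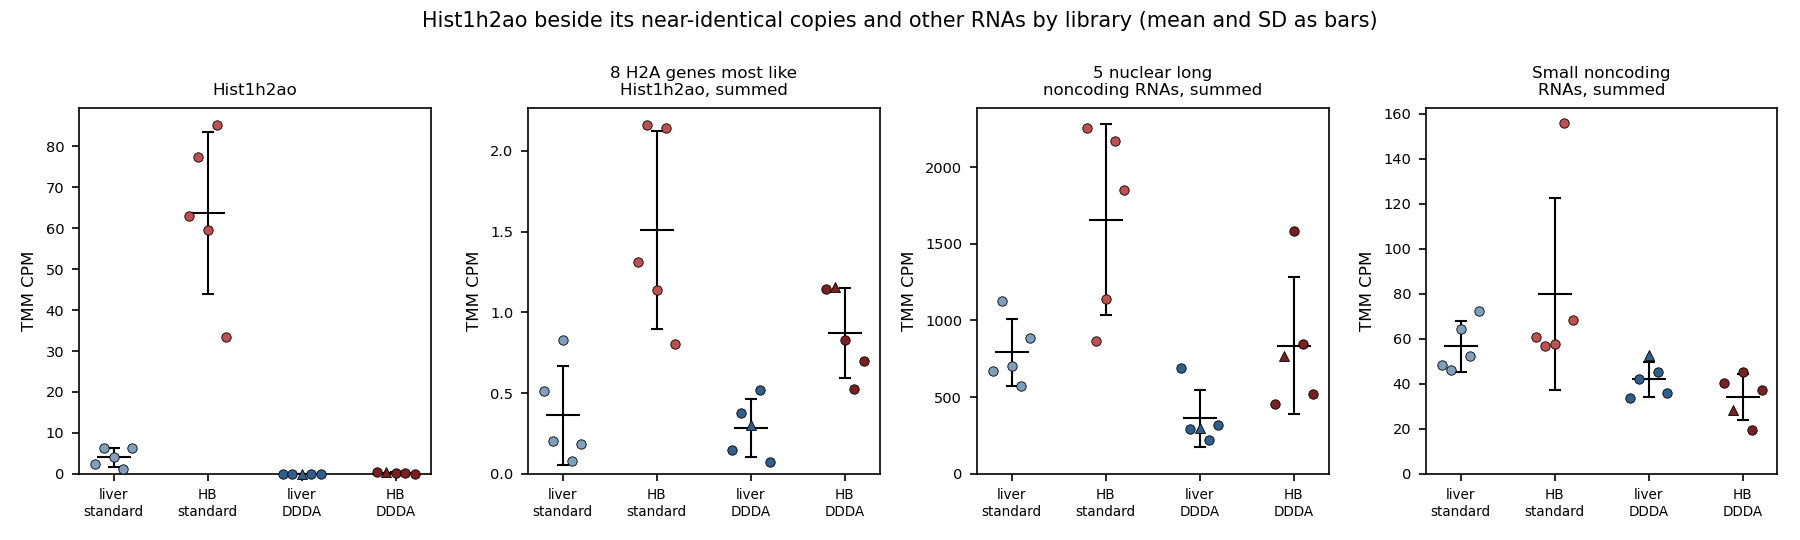
TMM-normalized CPM in each library of Hist1h2ao, of the 8 H2A genes most like it, of 5 nuclear long noncoding RNAs and of 146 small noncoding RNAs, each of the last 3 summed, with bars for the mean and SD (n = 5) and triangles for DL03 and DT3168. Hist1h2ao was at or near 0 in every DDDA library, including the 2 from the other flow cell, and the noncoding RNAs had lower means on DDDA in both tissues.

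Other RNAs that lack a poly(A) tail or stay in the nucleus also differed between the diets. The 5 nuclear long noncoding RNAs summed to 571 to 1130 CPM in standard diet livers and 221 to 689 CPM in DDDA livers, and to 867 to 2258 and 457 to 1581 CPM in HBs. In livers 3 of the 4 tested were lower on DDDA and 0 were higher, among them Malat1, whose 3′ end is made without a poly(A) tail (log2 fold change -1.02 ± 0.22, adjusted p = 0.0219, edgeR). In HBs 1 of 5 was lower, Kcnq1ot1, the antisense RNA of an imprinted domain (log2 fold change -2.83 ± 0.35, adjusted p = 0.0143, edgeR). The 146 small noncoding RNAs summed to 46.2 to 72.2 CPM in standard diet livers and 33.5 to 52.9 CPM in DDDA livers, and to 56.6 to 156 and 19.5 to 45.3 CPM in HBs. Of 3 of them tested in livers, Rn7sk was higher (log2 fold change 1.63 ± 0.43) and Rn7s2 lower (-0.58 ± 0.16), so this list did not move one way there. In HBs 0 of 4 tested were called by edgeR and 2 by DESeq2, which called 4.86% of all genes. Log2 fold changes of these 4 ran from -1.44 to 0.93, with a median of -0.85. Among members, the annotated transcripts of Hist2h2aa1 and Hist1h4h also ended shortly after the stem-loop, without AATAAA near the end. Hist2h2aa1 had means of 26.6 CPM in standard diet HBs and 34.0 CPM in DDDA HBs, and 51.0 and 45.5 CPM in livers. Hist1h4h had 2.51 and 3.81 CPM in HBs, and 0.62 and 0.73 CPM in livers. None of these 4 comparisons had an exact permutation p under 0.492 (two-sided, n = 5 per group). The part of a missing tail in the fall of Hist1h2ao was not tested. Diet, run and the paired and trimmed marking cannot be told apart.

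Of the other members, 0 were called between diets by edgeR. Hist1h2af had 99 counts over standard diet HBs and 20 over DDDA HBs. Its groups did not overlap, with 0.49 to 1.21 and 0 to 0.26 CPM, and the log2 fold change was -2.44 ± 0.61 (adjusted p = 0.114, edgeR). It was called with DESeq2 (adjusted p = 0.00391) and with all 20 libraries in 1 fit (adjusted p = 0.0322, with 2.16% of all genes called lower), and without DT2264 its log2 fold change was -2.38 ± 0.66 (adjusted p = 0.0972, edgeR). Hist1h1c was at 33.9 ± 4.52 CPM in standard diet HBs and 49.4 ± 35.3 CPM in DDDA HBs (adjusted p = 0.55), and in livers at 12.5 ± 4.59 and 20.4 ± 8.38 CPM (adjusted p = 0.155). Hist1h2bc was at 55.8 ± 3.64 and 77.9 ± 40.8 CPM in HBs (adjusted p = 0.543), and in livers at 65.2 ± 8.81 and 85.6 ± 15.4 CPM (adjusted p = 0.101). Without Hist1h2ao, the other 66 members summed to 156 ± 16.4 CPM in standard diet HBs and 203 ± 110 CPM in DDDA HBs, and to 153 ± 34.4 and 176 ± 33.2 CPM in livers.

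Whether the diet acted differently in HBs and livers was tested with all 4 groups. Of 21 members tested, 0 were called in either direction by edgeR, against 0% of all 14502 genes, and 0 had an unadjusted p under 0.05. DESeq2 called 0 members. For Hist1h2ao the difference was 1.36 ± 1.36 on the log2 scale (adjusted p = 0.906), and this estimate rests on the livers that were all at 0 counts. For Hist1h4h it was 0.37 ± 0.68 and for Hist1h1c -0.17 ± 0.51.

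**Figure D5:**
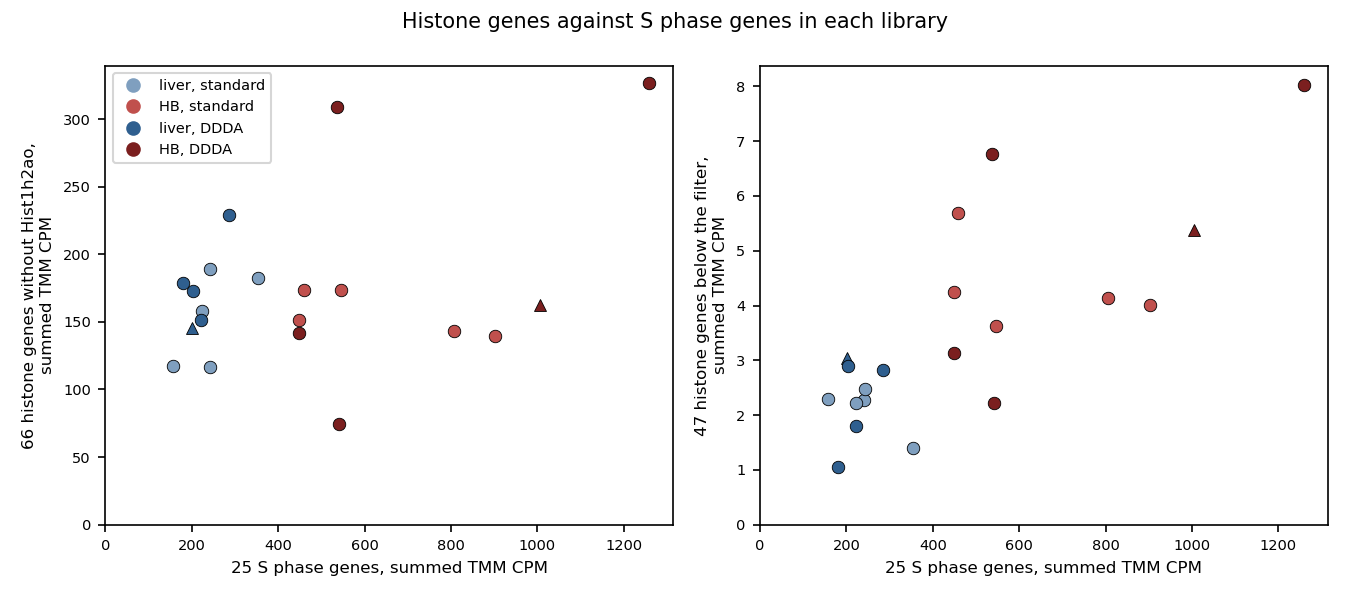
Summed TMM-normalized CPM of 66 histone genes (all but Hist1h2ao, left) and of the 47 histone genes below the filter (right) against that of 25 S phase genes, 1 point per library and triangles for DL03 and DT3168. HBs lie to the right of livers in both panels, and the left panel shows HBs and livers at like heights except for DT2264, DT2270 and DT3167.

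The list of S phase and proliferation genes gave the setting for these levels. For this list and those that follow, the shares of all genes serve as background. In HBs against livers, 28.2% of all genes were higher and 26.8% lower on the standard diet. On DDDA these shares were 26.3% and 23.4%, and those between diets are given above. Of 25 tested, 16 were higher and 1 was lower in standard diet HBs than in livers, with a median log2 fold change of 1.15. On DDDA, 22 were higher and 0 were lower, with a median of 1.97, and between diets 0 were called in either tissue (edgeR; 1 had an unadjusted p under 0.05 in HBs and 0 in livers, and DESeq2 called 0 in both). Ccna2, the cyclin of S phase, had a log2 fold change of 3.93 on the standard diet. Summed, the list was at 633 ± 209 CPM in standard diet HBs and 243 ± 70.9 CPM in livers, and at 758 ± 355 and 219 ± 40.4 CPM on DDDA. The 66 histone genes other than Hist1h2ao were at 156 ± 16.4 CPM against 153 ± 34.4 CPM on the standard diet, but at 631 ± 51.3 against 365 ± 122 in the deposited TPM, so the gap between HBs and livers depended on the scale. DT3167 had the highest S phase sum (1259 CPM) and the highest sum over all members (327 CPM). DT2264, at 541 CPM of S phase genes, was close to DT2270 at 537 CPM, though their sums over all members were 74.3 and 309 CPM.

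Of 13 tested genes for the transcription and 3′ end processing of histone mRNA, 2 were higher and 2 were lower in standard diet HBs, with a median log2 fold change of 0.14. Npat, the coactivator of histone transcription, was higher (0.59 ± 0.17), and Upf1, which takes part in the decay of histone mRNA, was lower (-0.49 ± 0.11). On DDDA 5 of 14 were higher and 2 were lower, with Zfp473, the zinc finger protein of the U7 complex, at 3.6 ± 0.90. Of all genes, 26.3% were higher and 23.4% lower on DDDA, and 28.2% and 26.8% on the standard diet. These counts are thus no finding about the list. Slbp was at 18.7 ± 4.48 CPM in standard diet HBs and 16.2 ± 1.70 CPM in livers, and at 18.8 ± 3.53 and 17.8 ± 2.54 CPM on DDDA. Between diets 0 of 14 were called in HBs by edgeR and by DESeq2, with 4 at an unadjusted p under 0.05, and in livers 1 of 13 was, Upf1 at -0.31 ± 0.08.

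Of 11 histone chaperones, which carry histones to and from DNA, 5 were higher on the standard diet and 6 on DDDA in HBs than in livers, and 0 were lower. Nap1l1 rose on both (log2 fold changes 1.17 ± 0.13 and 1.27 ± 0.12), and so did Asf1b (2.34 ± 0.37 and 2.93 ± 0.56). Of 11 replication-independent variants, whose mRNAs usually carry poly(A) tails, 8 were higher and 1 was lower on the standard diet, and 5 were higher and 0 lower on DDDA. The linker variant H1fx rose on both (2.21 ± 0.36 and 3.95 ± 0.62). Summed, the variants were at 1202 ± 83.4 CPM in standard diet HBs and 925 ± 44.0 CPM in livers. On DDDA they were at 1099 ± 139 CPM in HBs and 869 ± 52.1 CPM in livers. Between diets edgeR called 0 variants in HBs, with 3 at an unadjusted p under 0.05 and 1 called by DESeq2, and in livers 2 were higher and 3 lower, among them H1fx at -1.96 ± 0.46.

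Cell type markers also differed between HBs and livers. All 5 cholangiocyte markers were higher in HBs on both diets, at 262 to 852 CPM in standard diet HBs and 24.5 to 36.5 CPM in livers. Of 7 leukocyte markers tested, 3 were higher on the standard diet, at 110 to 378 CPM against 52.1 to 120 CPM. On DDDA 0 of 7 were called by edgeR or DESeq2, with 0 at an unadjusted p under 0.05, and the sums were 59.5 to 668 CPM in HBs and 49.7 to 328 CPM in livers. Hepatocyte markers were lower in 5 of 8 cases on the standard diet and in 6 of 8 on DDDA. Of 4 endothelial markers 2 were lower on both diets, at 56.8 to 128 CPM in standard diet HBs and 175 to 255 CPM in livers, and at 22.4 to 389 CPM and 137 to 204 CPM on DDDA. Of 4 stellate cell and fibroblast markers 2 were higher and 2 lower on the standard diet (114 to 276 CPM against 124 to 171 CPM), and 1 was higher on DDDA (29.9 to 1459 CPM against 149 to 205 CPM). The erythroid sum in DDDA HBs ranged from 105 to 8316 CPM. The part of these cells in the histone levels was not tested.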

How the data were processed

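RNA-Seq had been performed on 20 libraries of livers and HBs. Per the file headers, the authors' table holds total read counts per gene, which are whole numbers with no normalization, and deposited TPM, which scale reads by gene length and library. The submitters' processing notes name GRCm38.p6. Aligner and counting rules: not given in the sources used here. The headers mark only the standard diet columns as paired and trimmed. The table also holds 20 CPM columns and 56 columns of the authors' own comparisons (fold changes, p-values), which were not used.

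The main test was the quasi-likelihood F-test of edgeR 4.0.16 in R 4.3.3 (limma 3.58.1). TMM factors and the filterByExpr filter came first, and p-values were adjusted by Benjamini-Hochberg over every gene kept. Each comparison used its 2 groups, and the test of the diet's effect in HBs against livers used all 4. CPM were scaled over the 20 libraries. Single values were compared by exact two-sided permutation tests on log2 of CPM plus 0.5. Stem-loops, poly(A) signals and shared words of 50 bases were searched in GENCODE M21 transcripts, and motifs in RefSeq promoters matched by gene identifier. As alternatives, sex was added as a covariate, DESeq2 1.42.0 or RLE factors were used, the filter was lowered to 1 count, the 20 libraries shared a fit, each library in turn or DL03 with DT3168 was left out, and, chosen after seeing the data, near-identical copies were summed and Hist1h2ao was left out of the sum.

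The members and lists were chosen with earlier results of these data known. Members named were the 2 of highest mean TPM in each class, up to 5 called in each direction per comparison, and Hist1h2ao. Hist2h2be, Hist1h2br, Hist1h2ap, Hist1h1b, Hist1h1d, Hist1h3d and the near-identical copies were named after their values were seen, as was Slbp. The fits were also tested on simulated data. Depth limits the 47 members below the filter, and counting error alone is covered by the floor of 3 counts. Python 3.11.15 with pandas, numpy and matplotlib made the tables and figures.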

Additional observations from a re-analysis of the deposited data

Results flagged for a closer look

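Of 52 sets of 5 libraries looked at, 6 held a library far from the other 4, and chance flags about 1 in 20 such sets. Hist2h3c1 was at 1.57 CPM in standard diet HB s1800 against 5.16 to 6.01 CPM in the others, and Hist2h3c2 at 3.46 CPM there against 0. Their sum in s1800 was 5.03 CPM. Hist2h3c1 was at 0 CPM in DDDA HB DT2264 against 3.26 to 7.05 CPM. Hist1h2bq was at 2.62 CPM in DDDA liver DL03, which was read on another flow cell, against 5.41 to 6.64 CPM. Hist1h1c was at 35.3 CPM in DDDA liver DL02 against 15.5 to 17.9 CPM, and DL02 also had the highest S phase sum of the DDDA livers (286 CPM). Hist1h2af was at 0.0689 CPM in standard diet liver c17 against 0, which is 1 count.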

How the results depend on the processing

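On the standard diet, the count of histone genes called between HBs and livers was 7 of 13 tested, 18 of 60 with every gene of at least 1 count kept (35.5% of all genes) and 13 of 21 with all 20 libraries in 1 fit (50.8% of all genes), and 6 to 10 when 1 library was left out. On DDDA it was 3 of 11, 11 of 63 (30.5% of all genes) and 9 of 21 (54.8% of all genes) under the same settings, 2 without DL03 and DT3168 and 2 with sex as a covariate, and 3 to 5 when 1 library was left out, with 5 without DT2264. Between HBs of the diets it was 1, and 2 with DESeq2 and with all 20 libraries, and leaving out 1 library always gave 1. Between livers it was 1 under each setting. With every gene kept, the median log2 fold change of all genes was 0.18 on the standard diet and 0.32 on DDDA. As log2 ratios of summed levels, HBs against livers on the standard diet gave 0.49 in CPM, 1.35 in deposited TPM, 0.84 without Hist1h2bc and 0.035 without Hist1h2ao. On DDDA the ratio was 0.21 in CPM and 1.02 in deposited TPM. From liver c1 to HB s1758, Hist1h2bc went from 107 to 226 TPM and from 55.3 to 58.6 CPM. The ratio of TPM to CPM shifted alike for the other members, so TPM are no second reading of the histone genes. What set this shift between libraries was not tested. For the 12 genes chosen by rule, 914 of 929 alternative values kept their side of the threshold. Of the others, 8 lost the call (all Hist1h1c on DDDA) and 7 gained one. Direction was not always kept among values that were not called. For Hist2h3c1 in HBs against livers on the standard diet, log2 fold changes ran from -0.24 to 1.10. Outside these 12, Hist2h2be lost its call on the standard diet without any 1 of 6 libraries. No paired analysis was possible because the libraries carry identifiers of their own and share no replicate numbers between groups. The low depth of most members, under 10 counts in every library for 34 of 67, limits what can be said of them.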
